A study of Mus musculus with 10 samples.

Results

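Transcripts of 10 Kruppel-like factor genes, Klf2, Klf3, Klf4, Klf6, Klf7, Klf9, Klf10, Klf11, Klf12 and Klf13, were followed in BCR-ABL+ mouse bone marrow colonies that lacked CDK6 or carried a mutant CDK6. They were found by name: every non-control probe whose RefSeq transcript belongs to 1 of these genes was taken, which gave 15 of the 56605 probes on the array. Of the 15 probes, 10 passed the filter on dim probes, and 8 of the 10 genes were tested among 22008 genes in all; Klf11 and Klf12 had no probe that passed. Kruppel-like factors bind CACCC and GC-rich elements through a row of zinc fingers at the end of the protein. Some members mainly activate transcription, such as KLF2, KLF4, KLF6 and KLF7, and others mainly repress it, such as KLF3, KLF12, KLF9, KLF10, KLF11 and KLF13, which recruit CtBP or SIN3A. In lymphocytes the family is known for holding resting cells out of the cell cycle and for setting where they migrate, above all through KLF2.

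The study set 4 Cdk6-K43M samples and 4 Cdk6-/- samples against 1 pool of 4 wild-type RNAs. Cdk6-K43M denotes a CDK6 protein without kinase activity, Cdk6-/- cells have no functional Cdk6 gene, and CDK6 is a kinase that D-type cyclins switch on in G1, with a further role at promoters. In all groups, wild type included, marrow of 6-week-old donor mice was exposed to the BCR-ABL retrovirus, was placed 24 h later in methylcellulose that held no growth factors, and colonies were picked on day 10. BCR-ABL, a fusion kinase of human leukaemias, was thus present in every sample, delivered by virus, and the number of colonies, animals or cultures behind each sample is stated in no label. P-values therefore measure the spread between these samples only, which may be technical. Each mutant sample was hybridised in Cy5 against the wild-type pool in Cy3, and for each genotype 1 more array held its pooled RNA with the dyes exchanged. All values below are log2 ratios of mutant over wild-type pool, or changes fitted to them by limma, unless a level is named.

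In the mutant channel 49.0 to 51.9% of probes were well above background, against 47.9 to 52.0% in the wild-type channel, no spot was saturated, and the number of arrays limits the precision. Cdk6, by a probe whose position in the transcript is not in the files, read 0.31, 0.40, 0.33 and 0.83 in the Cdk6-K43M samples and -0.37, -0.40, -0.18 and 0.00 in the Cdk6-/- samples. The fitted changes were 0.35 in Cdk6-K43M (SE 0.10, adjusted p = 0.031) and -0.41 in Cdk6-/- (SE 0.10, adjusted p = 0.0368), so the probe still gave signal in cells labelled Cdk6-/-. The Cdk6-/- call was lost under 5 of 18 alternatives, among them leaving out Cdk6-/- replicate 1, 2 or 3 (adjusted p = 0.0964, 0.0826 and 0.0519) or the arrays with exchanged dyes (-0.24, adjusted p = 0.137), and the change was -0.98 with Agilent's processed signals. All 11 B-lineage progenitor markers were above background, while Cdh5, Tek, Col1a1, Col3a1 and Pdgfrb of the 8 endothelial and stromal markers, and Gata1, Hbb-b1 and Itga2b of the 7 erythroid and megakaryocyte markers, were above it on no array. One library stood apart: in Cdk6-K43M replicate 4, 5 of 15 granulocyte, monocyte and macrophage markers lay over 1 above the pool (Lyz2 2.24, Adgre1 2.07, Cd14 1.99, Csf1r 1.95 and Cd68 1.76), and in no other library did any of them. Yet 3 of the 15 lay over 1 below the pool in that replicate: S100a9 (-3.48), S100a8 (-2.47) and Ly86 (-2.28). There 7 of the 15 lay above the pool, and the list median was -0.003. The summed level of the list ranged from 16640 to 52010 in Cdk6-K43M samples, from 17190 to 23990 in Cdk6-/- samples and from 29100 to 32370 in the wild-type channel. Over all samples, 6 of the 15 fell in each genotype and none rose, where 10.3% of all genes were lower in Cdk6-K43M and 3.85% in Cdk6-/-. Among the 6 was S100a9 (-3.94 in Cdk6-K43M, -4.16 in Cdk6-/-). Ngp, Camp and Mpo of the 6 were above background in 0 of 4 samples of each mutant genotype. S100a8 was so in 1 of 4 Cdk6-K43M samples and 0 of 4 Cdk6-/- samples. The part of such cells in the results below was not tested.

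The sequences just upstream of the 5 genes that passed a test against wild type are shown because they hold, or lack, the elements that the family and its known regulators bind. The windows cover the 250 bases before the annotated start in RefSeq's GRCm38.p6 annotation, 5′ to 3′ on the gene's strand: chr8:72318812-72319061 (plus strand) for Klf2, chr7:63938916-63939165 (minus strand) for Klf13, chr13:5861239-5861488 (plus strand) for Klf6, chr1:64121390-64121639 (minus strand) for Klf7 and chr19:23140976-23141225 (plus strand) for Klf9. Capitals mark, on either strand, the KLF element CACCC, the SP and KLF element GGGCGG, the forkhead element GTAAACA and the MEF2 consensus.
Klf2 upstream window: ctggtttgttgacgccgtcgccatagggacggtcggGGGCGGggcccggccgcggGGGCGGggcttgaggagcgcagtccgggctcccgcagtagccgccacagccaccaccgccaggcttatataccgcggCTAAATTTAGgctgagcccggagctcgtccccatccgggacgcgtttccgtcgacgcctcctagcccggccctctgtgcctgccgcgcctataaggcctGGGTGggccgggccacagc
Klf13 upstream window: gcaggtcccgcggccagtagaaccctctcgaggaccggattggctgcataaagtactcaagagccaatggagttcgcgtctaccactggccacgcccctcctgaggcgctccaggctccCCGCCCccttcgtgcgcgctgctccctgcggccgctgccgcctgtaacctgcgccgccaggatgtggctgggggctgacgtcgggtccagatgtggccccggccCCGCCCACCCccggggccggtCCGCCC
Klf6 upstream window: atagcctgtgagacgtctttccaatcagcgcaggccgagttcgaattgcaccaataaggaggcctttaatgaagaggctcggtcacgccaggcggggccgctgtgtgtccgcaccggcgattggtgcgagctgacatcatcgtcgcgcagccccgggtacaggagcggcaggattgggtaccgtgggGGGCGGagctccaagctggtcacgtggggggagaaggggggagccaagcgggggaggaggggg
Klf7 upstream window: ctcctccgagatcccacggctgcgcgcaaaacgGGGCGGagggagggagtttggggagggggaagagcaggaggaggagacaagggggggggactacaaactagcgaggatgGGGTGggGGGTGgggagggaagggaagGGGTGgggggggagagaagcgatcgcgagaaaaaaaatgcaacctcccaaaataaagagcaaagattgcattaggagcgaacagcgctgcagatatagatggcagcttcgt
Klf9 upstream window: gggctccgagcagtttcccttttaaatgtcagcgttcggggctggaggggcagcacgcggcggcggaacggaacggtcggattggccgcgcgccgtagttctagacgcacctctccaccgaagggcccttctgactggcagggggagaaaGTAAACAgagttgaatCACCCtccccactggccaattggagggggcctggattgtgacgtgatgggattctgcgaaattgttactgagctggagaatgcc
The Klf2 window held 1 MEF2 match, CTAAATTTAG, at bases 118 to 109 before the start, 2 GGGCGG elements and 1 CACCC element read on the other strand. A MEF2 match stood in 2.92% of all 32851 RefSeq windows of the same length. Klf9 alone held GTAAACA, found in 3.17% of all windows, at bases 100 to 94 before the start. CACCC occurred in 52.0% and GGGCGG in 32.7% of all windows; in Klf13 a CACCC and a GGGCGG match shared 1 base. Of the 9 members with a window (Klf10 had none), 6 held CACCC and 7 held GGGCGG. The matches are letters in a window and were not tested for binding.

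Klf2 fell in both genotypes, and by more than any other member. Against the wild-type pool, Klf2 and Klf13 fell and Klf6 and Klf7 rose in Cdk6-K43M, so 4 of the 8 members passed, where 20.1% of all genes did (9.79% higher and 10.3% lower). In Cdk6-/-, Klf2 fell and Klf9 rose, so 2 of 8 passed, where 7.24% of all genes did (3.39% higher and 3.85% lower). The median fitted change of the 8 members was -0.01 in Cdk6-K43M and -0.12 in Cdk6-/-, against -0.01 and 0.00 over all genes. Their median size, whatever the sign, was 0.26 in Cdk6-K43M and 0.14 in Cdk6-/-, against 0.11 and 0.10 over all genes. The family thus had no common direction in these cells. Since each sample is a mixture of cells, fewer cells of a type and less RNA per cell cannot be told apart.

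**Figure D1:**
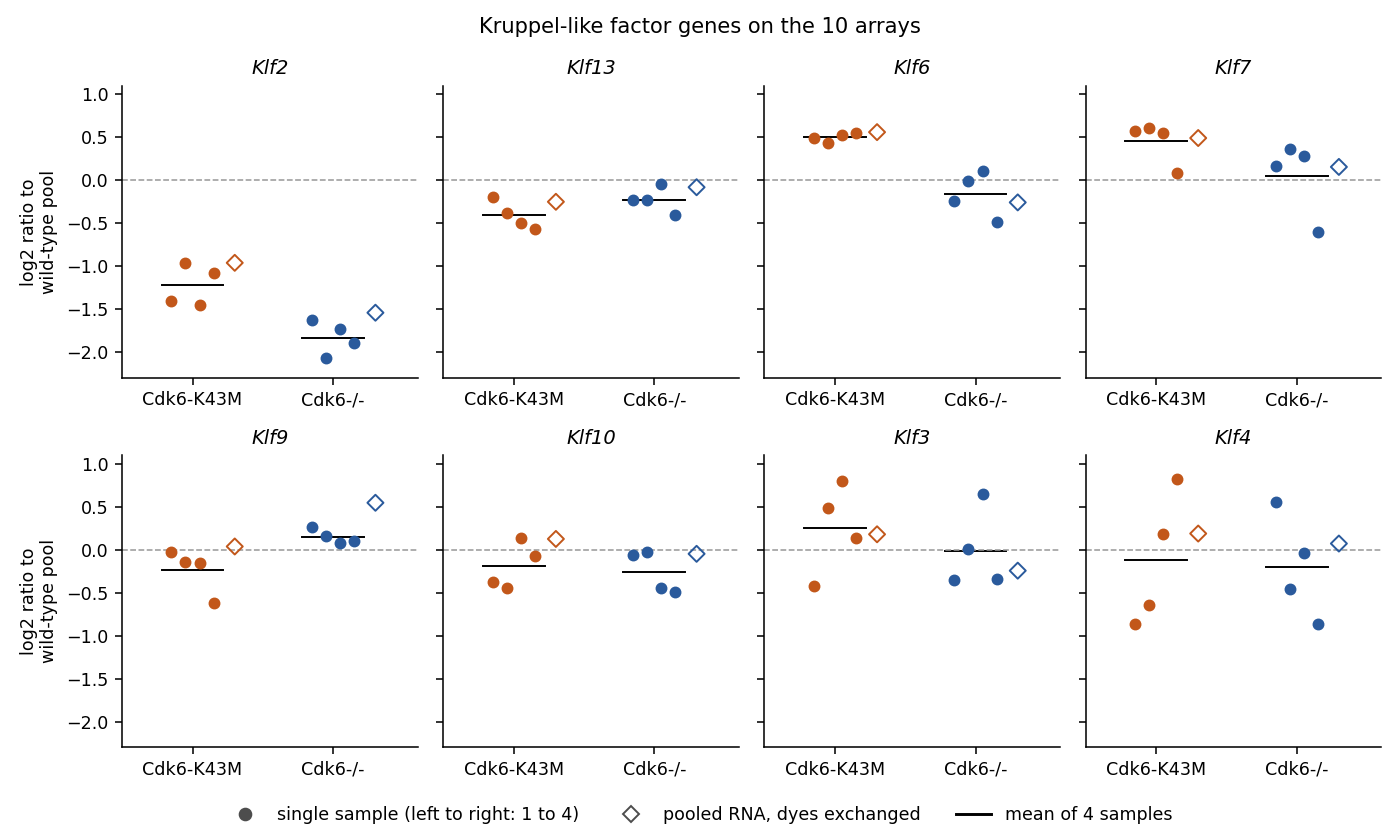
Log2 ratio to the wild-type pool (y axis) of the 8 tested Kruppel-like factor genes in the Cdk6-K43M (left) and Cdk6-/- (right) samples. Filled points are the 4 single samples, open diamonds the pooled RNA with dyes exchanged, and bars the mean of the 4 samples. Klf2 lies at or below -0.96 on all 10 arrays, Klf6 in Cdk6-K43M between 0.43 and 0.56, and Klf3 and Klf4 spread to both sides of 0.

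Klf2 encodes the factor that keeps naive lymphocytes quiescent and in circulation. Its ratio was -1.40, -0.96, -1.45 and -1.08 in the 4 Cdk6-K43M samples and -0.96 on their pooled array. In the 4 Cdk6-/- samples it was -1.63, -2.07, -1.73 and -1.89, with -1.54 on the pooled array. All 10 arrays thus lay below the wild-type pool, and every Cdk6-/- sample lay below every Cdk6-K43M sample. Samples of the mutant genotypes did not overlap, in either direction, for 8.15% of all genes. The fitted change was -1.09 in Cdk6-K43M (SE 0.09, 2.13-fold lower, adjusted p = 0.000115) and -1.69 in Cdk6-/- (SE 0.09, 3.23-fold lower, adjusted p = 1.25e-05). In Cdk6-/- it ranked 31 from the lowest of 22008 changes and 11 by p-value, and in Cdk6-K43M 114 from the lowest. Genes lower in both genotypes were 2.58% of all genes, and genes below the pool on all 5 arrays were 15.4% in Cdk6-K43M and 13.3% in Cdk6-/-. On the scale of log2 channel level, Klf2 averaged 10.42 ± 0.26 in Cdk6-K43M, 9.83 ± 0.12 in Cdk6-/- (SD, n = 4 samples each) and 11.66 ± 0.08 in the wild-type pool (SD over 8 arrays of 1 pool). The ranges were 10.16 to 10.75, 9.70 to 9.95 and 11.55 to 11.77, the last over repeated readings of 1 pool. Of 3 mature B cell markers tested, Ms4a1 (-2.67, adjusted p = 0.00138) and Cd22 (-1.18, adjusted p = 0.0284) fell in Cdk6-K43M. The third, Cr2, read -0.08 in Cdk6-K43M (adjusted p = 0.533) and 0.02 in Cdk6-/- (adjusted p = 0.916). None of the 3 passed in Cdk6-/-, where Ms4a1 read -1.41 (adjusted p = 0.0531) and Cd22 -0.76 (adjusted p = 0.179). The summed level of this list was 555.6 to 967.8 in Cdk6-K43M samples, 494.6 to 1403 in Cdk6-/- samples and 1950 to 2169 in the wild-type channel. Fcer2a of the 5 listed was above background on no array. Of 7 T and NK cell markers tested, 2 rose and 1 fell in each genotype, with Thy1 at 2.79 in Cdk6-K43M and 2.14 in Cdk6-/- and Cd2 at -1.32 and -1.19. Il7r, which is not particular to T and NK cells, was the other gene that rose in Cdk6-K43M, and in Cdk6-/- it was Lck. Cd3d, Cd3e and Cd4 passed in neither genotype. The summed level of this list was 22180 to 34970 in Cdk6-K43M samples, 17530 to 26110 in Cdk6-/- samples and 24700 to 27440 in the wild-type channel. Cd3g and Cd8a were above background on no array. The part of mature B, T and NK cells in the Klf2 change was not tested. Under the 18 alternatives the Klf2 change kept its call, between -1.22 and -0.89 in Cdk6-K43M and between -1.83 and -1.64 in Cdk6-/-.

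Klf13, a repressor that also drives the chemokine gene Ccl5 in T cells, fell slightly in Cdk6-K43M. The ratio was -0.19, -0.38, -0.49 and -0.57 in the Cdk6-K43M samples and -0.25 on the pooled array. In the Cdk6-/- samples it was -0.23, -0.23, -0.04 and -0.41, with -0.08 on the pooled array. All 10 arrays were again below the pool, but the ranges of the genotypes overlapped. The fitted change was -0.33 in Cdk6-K43M (SE 0.07, adjusted p = 0.0108) and -0.15 in Cdk6-/- (SE 0.07, adjusted p = 0.224). The Cdk6-K43M call was lost with median centring in place of loess (-0.13, adjusted p = 0.274), a setting that moved the median of all genes to 0.11 and thus leaves Klf13 -0.24 from it. It was also lost with standard errors widened for the unknown spread of the pool (adjusted p = 0.0909).

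**Figure D2:**
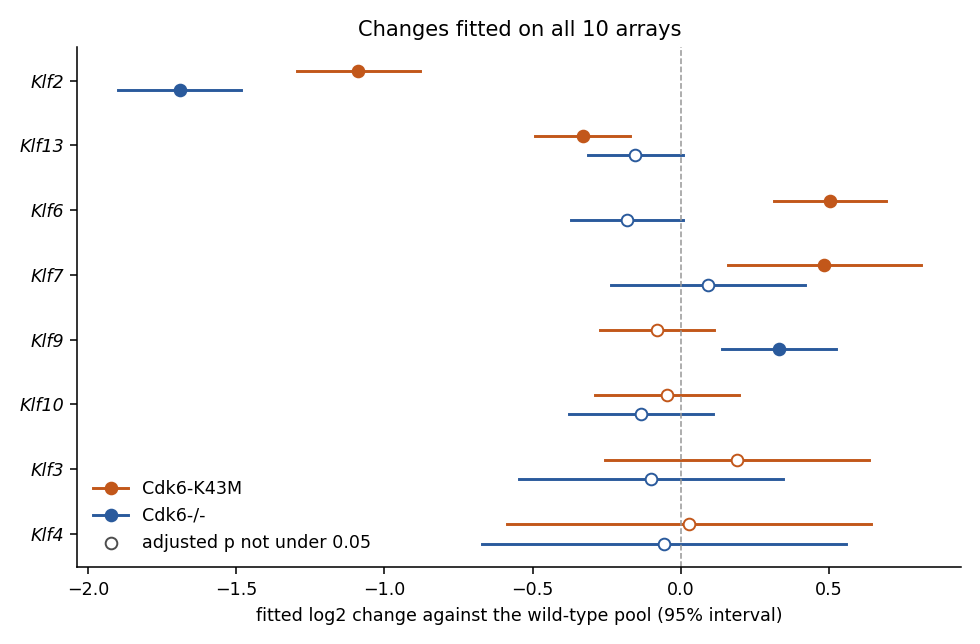
Fitted log2 change against the wild-type pool (x axis) with 95% interval for each tested member, Cdk6-K43M above Cdk6-/-. Filled points passed an adjusted p of 0.05: Klf2 in both genotypes, Klf13, Klf6 and Klf7 in Cdk6-K43M and Klf9 in Cdk6-/-.

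Klf6 and Klf7, closely related activators, rose in Cdk6-K43M. KLF6 is a widely expressed factor studied as a tumour suppressor, and KLF7 is known from the growth of neurons. Klf6 read 0.49, 0.43, 0.52 and 0.55 in the Cdk6-K43M samples and 0.56 on the pooled array. It read -0.24, 0.00, 0.10 and -0.48 in the Cdk6-/- samples, with -0.26 on the pooled array. The Cdk6-K43M samples were tightly grouped (SD 0.05) and lay above every Cdk6-/- sample. The fitted change was 0.51 in Cdk6-K43M (SE 0.08, 1.42-fold, adjusted p = 0.00309) and -0.18 in Cdk6-/- (SE 0.08, adjusted p = 0.218). Klf6 kept its call in Cdk6-K43M under all 18 alternatives, from 0.49 to 0.71.

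Klf7 had 2 probes that passed the filter. Its brighter probe read 0.58, 0.61, 0.55 and 0.09 in the Cdk6-K43M samples, with 0.49 on the pooled array, and replicate 4 stood far below the other 3. In Cdk6-/- it read 0.16, 0.36, 0.28 and -0.60, with 0.16 on the pooled array, and again replicate 4 was the lowest. The fitted change was 0.49 in Cdk6-K43M (SE 0.15, 1.40-fold, adjusted p = 0.0423) and 0.09 in Cdk6-/- (SE 0.15, adjusted p = 0.738). The other probe gave 0.22 in Cdk6-K43M (adjusted p = 0.121, over 28177 probes tested one by one) and -0.02 in Cdk6-/- (adjusted p = 0.927), and the call was lost under 10 of 18 alternatives. Without the array of Cdk6-K43M replicate 4, the library in which some macrophage markers were high, the fitted change of the brighter probe was 0.56 (adjusted p = 0.0264). That fit kept the pooled array, which holds the same RNA.

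Klf9, which glucocorticoid and thyroid hormones induce and which restrains B cell proliferation, was the 1 member that rose in Cdk6-/-. Its ratio was 0.27, 0.16, 0.08 and 0.11 in the Cdk6-/- samples and 0.55 on the pooled array. In the Cdk6-K43M samples it was -0.02, -0.14, -0.16 and -0.62, with 0.04 on the pooled array. All 5 Cdk6-/- arrays thus lay above the pool, as did those of 11.1% of all genes, and all 4 single Cdk6-K43M samples lay below it. The fitted change was -0.08 in Cdk6-K43M (SE 0.09, adjusted p = 0.578; 0.07 with median centring) and 0.33 in Cdk6-/- (SE 0.09, adjusted p = 0.0486). The array with exchanged dyes gave the highest value: without both such arrays and the dye term, the value was 0.15 (adjusted p = 0.286). The call was lost under 14 of 18 alternatives.

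Klf10, Klf3 and Klf4 passed no test. Klf10, an early target of TGF-beta, read -0.37, -0.45, 0.14 and -0.08 in the Cdk6-K43M samples and -0.06, -0.02, -0.45 and -0.49 in the Cdk6-/- samples, and its fitted changes were -0.05 (95% interval -0.29 to 0.20) and -0.13 (-0.38 to 0.11). A change of 1.5-fold either way lies outside both intervals. Klf3, a CtBP-recruiting repressor in B cell and erythroid development, read -0.42, 0.48, 0.80 and 0.13 in Cdk6-K43M and -0.35, 0.01, 0.65 and -0.34 in Cdk6-/-. Its second probe followed the same order in Cdk6-K43M only in part (-0.03, 0.42, 0.73 and 0.45). Klf4, a pluripotency factor that also acts in monocytes and resting lymphocytes, read -0.86, -0.64, 0.18 and 0.82 in Cdk6-K43M and 0.56, -0.46, -0.03 and -0.86 in Cdk6-/-. Samples of 1 genotype thus differed by more than 1.6 for Klf4 in Cdk6-K43M, and the SD within a genotype was at the 97.8 percentile of all genes for Klf4 and at the 95.4 percentile for Klf3. Their intervals are wide: -0.59 to 0.64 in Cdk6-K43M and -0.67 to 0.56 in Cdk6-/- for Klf4, and -0.25 to 0.64 and -0.55 to 0.34 for Klf3. The highest Klf4 value was that of Cdk6-K43M replicate 4, the library in which some macrophage markers were high. Without the array of that sample the fitted Klf4 change in Cdk6-K43M was -0.17 (adjusted p = 0.674), against 0.03 with it. The pooled array, which holds the same RNA, stayed in that fit.

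Klf11 and Klf12, both repressors, gave only a bound. The Klf11 probe was well above background in 0 of 4 Cdk6-K43M samples, 0 of 4 Cdk6-/- samples and 2 of 10 wild-type channels, and none of the 3 Klf12 probes was so in more than 1 sample of a genotype or in any wild-type channel. Of the 7 other Kruppel-like factor genes with a probe, 3 were tested, and none passed in any comparison. Klf8 read 0.14 in Cdk6-K43M (adjusted p = 0.202) and 0.22 in Cdk6-/- (adjusted p = 0.0916), and Klf16 read 0.08 and -0.04. Klf1, the erythroid member, was tested only because 5 of 10 wild-type channels were above background, and read -0.12 and -0.04. Klf5, Klf14, Klf15 and Klf17 had no probe that passed the filter.

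Whether the mutant without kinase activity differed from the loss of CDK6 was tested on the 8 single samples, where the wild-type pool cancels. None of the 8 members passed with limma, where 0.513% of all genes did, while 3 had an unadjusted p under 0.05: Klf6, Klf2 and Klf9. For those 3 the samples of the genotypes did not overlap, as for 8.15% of all genes. Klf6 differed by 0.65 (95% interval 0.37 to 0.93, adjusted p = 0.0784), Klf2 by 0.61 (0.29 to 0.93, adjusted p = 0.128) and Klf9 by -0.39 (-0.68 to -0.10, adjusted p = 0.246). Within slides 1, 2 and 3, the difference was 0.73, 0.68 and 0.53 for Klf6, 0.23, 0.79 and 0.62 for Klf2 and -0.29, -0.47 and -0.32 for Klf9. Their signs follow from the lack of overlap and are no further check. Without Cdk6-K43M replicate 4 it was 0.64 for Klf6, 0.56 for Klf2 and -0.26 for Klf9. Klf2 and Klf6 passed when the pooled arrays, which hold the same RNA again, were added (0.60, adjusted p = 0.0329, and 0.69, adjusted p = 0.0125) and with median centring (0.75, adjusted p = 0.0308, and 0.81, adjusted p = 0.0447). They did not pass with slide as a block (adjusted p = 0.16 and 0.185), with the replicate number as a block (adjusted p = 0.212 and 0.142) or under the other alternatives. Of the other members, Klf7 differed by 0.41 (-0.09 to 0.90), Klf13 by -0.18 (-0.43 to 0.06), Klf10 by 0.07 (-0.30 to 0.43), Klf3 by 0.26 (-0.41 to 0.93) and Klf4 by 0.08 (-0.85 to 1.00).

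**Figure D3:**
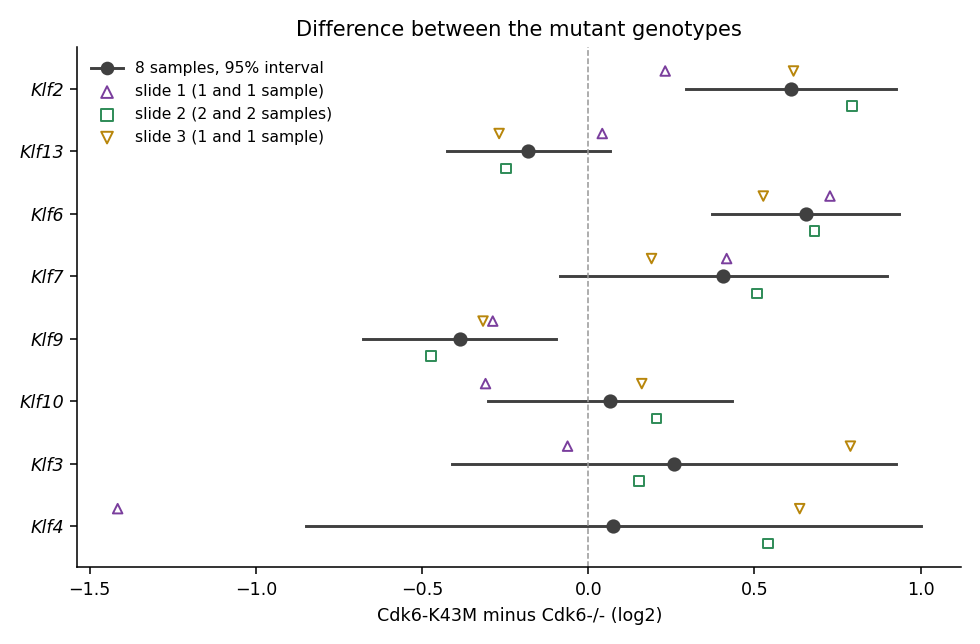
Log2 difference, Cdk6-K43M minus Cdk6-/- (x axis), for each tested member. Filled points with lines are the estimate from 8 samples with its 95% interval, and open symbols are the difference within each of 3 slides. The intervals of Klf2, Klf6 and Klf9 do not reach 0 before adjustment. Their symbols lie on 1 side of 0, which follows from samples of the genotypes that do not overlap.

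Among the samples, Cdk6-/- replicate 4 lay below the wild-type pool in 7 of 8 members and was the lowest of its genotype in 5. Its median was -0.49 over the members, against 0.00 over all tested genes. The share of all genes that were lowest in that sample was not counted. The other 3 Cdk6-/- samples had 4 or 5 members below the pool and medians of -0.15, -0.01 and 0.02. In Cdk6-K43M, the medians were -0.28, -0.26, 0.16 and 0.01. Across the 8 single samples, the Pearson correlation with Klf2 was 0.74 for Klf6, 0.42 for Klf7, -0.49 for Klf13 and -0.74 for Klf9; the points share the wild-type pool and fall into 2 genotypes, so the values are descriptions. Of 5006 genes with enough spread, the 5 most like Klf2 were Rhod (0.98), a small GTPase of endosomes, Map3k5 (0.97), the stress kinase ASK1, Ust (0.96), a sulfotransferase, Nabp1 (0.95), a single-stranded DNA binding protein, and Tgfbr3 (0.94), the TGF-beta co-receptor betaglycan, which was above background in none of the 4 Cdk6-/- samples. Rhod read -0.19, 0.45, -0.27 and 0.29 in Cdk6-K43M and -0.40, -0.79, -0.37 and -0.59 in Cdk6-/-. Its order over the 4 samples was that of Klf2 in Cdk6-K43M, and in Cdk6-/- replicates 1 and 3 stood in exchanged order. The genes were picked for this likeness, which leaves out their level against wild type. In Cdk6-K43M, where Klf2 fell, Nabp1 rose by 0.89 (adjusted p = 0.000574) and Tgfbr3 by 0.89 (adjusted p = 0.017). Map3k5 rose there by 0.33 (adjusted p = 0.0166) and Ust by 0.32 (adjusted p = 0.00592), while Rhod read 0.08 (adjusted p = 0.711). In Cdk6-/- Rhod fell by 0.54 (adjusted p = 0.0277), and Nabp1, Tgfbr3, Map3k5 and Ust did not pass.

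Genes of the lists around the family were read in the same fits, and the counts below stand beside 20.1% of all genes called in Cdk6-K43M (9.79% higher and 10.3% lower) and 7.24% in Cdk6-/- (3.39% higher and 3.85% lower). Of the listed genes, 29 changes against wild type that passed are named. With standard errors widened for the unknown spread of the pool, 9 of the 29 passed: those of Mef2c, Foxo3, Hdac1, Sp2, Fkbp5, Dusp1, Btg1 and Per1 in Cdk6-K43M and of Per1 in Cdk6-/-. Of 10 regulators of Klf2 transcription, 3 fell and 1 rose in Cdk6-K43M (median -0.10; 2 fell and 3 rose with median centring), and in Cdk6-/- 2 fell and none rose (median -0.06), against medians of -0.01 and 0.00 over all genes. Mef2c, a MEF2 factor of the kind that binds the element marked in the Klf2 window, read -1.08, -1.19, -0.70 and -1.66 in the Cdk6-K43M samples and -0.61, -0.65, -0.46 and -0.72 in the Cdk6-/- samples. It fell in both, by 1.20 in Cdk6-K43M (SE 0.12, adjusted p = 0.000256) and by 0.67 in Cdk6-/- (SE 0.12, adjusted p = 0.0136). The difference between the genotypes was -0.55 (adjusted p = 0.243). Foxo3, a forkhead factor held in check by PI3K and AKT, fell by 0.50 in Cdk6-K43M (adjusted p = 0.0032) and by 0.39 in Cdk6-/- (adjusted p = 0.0255). Mef2a fell by 0.26 in Cdk6-K43M (adjusted p = 0.00966) and read 0.05 in Cdk6-/- (adjusted p = 0.631). Mef2d, another MEF2 factor, rose by 0.23 in Cdk6-K43M (adjusted p = 0.0357, lost under 8 of 18 alternatives) and read 0.19 in Cdk6-/- (adjusted p = 0.116). The Cdk6-K43M call of Mef2a was lost with median centring (-0.07, adjusted p = 0.501), and the Foxo3 call in Cdk6-/- was lost with it (-0.34, adjusted p = 0.0757) and with Agilent's processed signals (-0.58, adjusted p = 0.0712).

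Lymphocyte homing genes under KLF2 did not move as a group. Of 6 tested, only Ccr7, a receptor for entry into lymph nodes, passed in these fits: it fell by 0.57 in Cdk6-K43M (SE 0.16, adjusted p = 0.0333) and by 1.03 in Cdk6-/- (SE 0.16, adjusted p = 0.00817). The Cdk6-K43M call of Ccr7 was lost under 4 of 18 alternatives, among them median centring (-0.37, adjusted p = 0.124), Agilent's processed signals (adjusted p = 0.0608) and leaving out Cdk6-K43M replicate 3 (adjusted p = 0.0545). S1pr1, the receptor through which KLF2 lets cells leave lymphoid organs, read 0.58 in Cdk6-K43M (adjusted p = 0.192) and -0.12 in Cdk6-/- (adjusted p = 0.832). The list median was -0.16 in Cdk6-K43M and -0.24 in Cdk6-/-. The list does not separate genes that KLF2 raises from genes that it lowers, so its median has no expected sign. The highest S1pr1 value, 1.12, was that of Cdk6-K43M replicate 4.

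**Figure D4:**
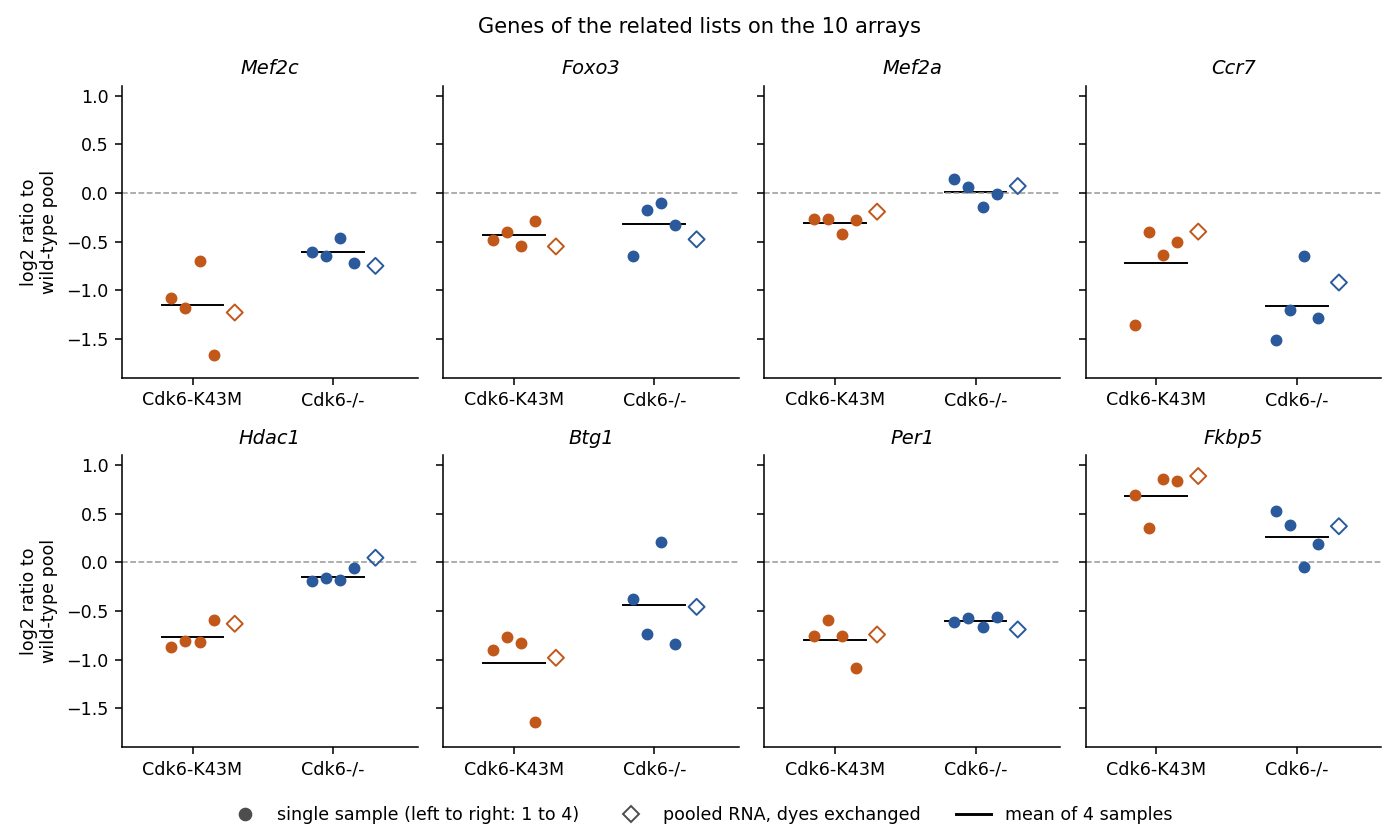
Log2 ratio to the wild-type pool (y axis) of 8 genes from the related lists, Cdk6-K43M left and Cdk6-/- right. Filled points are single samples, open diamonds the pooled RNA with dyes exchanged, and bars the mean of the 4 samples. Mef2c, Foxo3, Ccr7 and Per1 lie below 0 on all 10 arrays, and the Hdac1 samples of the genotypes lie apart.

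Among 12 corepressors and coactivators, 3 fell in Cdk6-K43M (median -0.09; 1 fell and 1 rose with median centring) and none passed in Cdk6-/- (median -0.01, 2 of 12 with an unadjusted p under 0.05). Hdac1, a histone deacetylase of SIN3A complexes, read -0.87, -0.81, -0.82 and -0.59 in the Cdk6-K43M samples and -0.19, -0.15, -0.18 and -0.06 in the Cdk6-/- samples. It fell by 0.69 in Cdk6-K43M (SE 0.05, adjusted p = 7.91e-05), read -0.06 in Cdk6-/- (adjusted p = 0.565), and differed between them (-0.63, SE 0.08, adjusted p = 0.0165), a call lost under 8 of 18 alternatives. Sin3a, the scaffold that KLF9, KLF10, KLF11 and KLF13 bind, fell by 0.34 (adjusted p = 0.00541) and Ctbp1, the partner of KLF3 and KLF12, by 0.23 (adjusted p = 0.0212) in Cdk6-K43M, the first losing its call (-0.15, adjusted p = 0.262) and the second turning to 0.07 with median centring. Of the 4 SP factors, which share the GC element, Sp1, Sp2 and Sp4 fell in Cdk6-K43M, by 0.32, 0.44 and 0.32 (adjusted p = 0.00543, 0.00234 and 0.0185), of which Sp2 alone passed with median centring, and Sp2 fell by 0.29 in Cdk6-/- (adjusted p = 0.0356, lost under 8 of 18 alternatives). Of 7 ubiquitin ligases of KLF proteins none passed in any comparison (2 rose in Cdk6-K43M with median centring), with 0 of 7 under an unadjusted p of 0.05 in Cdk6-/- and 1 of 7, Vhl, in Cdk6-K43M.

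Pathways that act on other members gave mixed readings. In the glucocorticoid list, which concerns a hormone that induces Klf9 but does not hold Klf9 itself, 3 of 6 rose and 2 fell in Cdk6-K43M, and 1 rose and 1 fell in Cdk6-/-. Beside Per1, the receptor gene Nr3c1 fell in Cdk6-K43M (-0.34, adjusted p = 0.0203). It was outside the 4 genes with the smallest p, so it was neither counted above nor followed under the alternatives. Fkbp5 rose by 0.77 (adjusted p = 0.000988) and Dusp1 by 0.46 (adjusted p = 0.00209) in Cdk6-K43M, Sgk1 rose by 0.40 in Cdk6-K43M (adjusted p = 0.0175) and by 0.51 in Cdk6-/- (adjusted p = 0.0182), and the clock gene Per1 fell by 0.79 (adjusted p = 0.000149) and 0.62 (adjusted p = 0.0015). Sgk1 lost its Cdk6-K43M call without the arrays with exchanged dyes (0.27, adjusted p = 0.0883) and its Cdk6-/- call without Cdk6-/- replicate 1 (adjusted p = 0.0536). Of 9 TGF-beta pathway genes, Skil, a SMAD inhibitor, fell in both (-0.24, adjusted p = 0.0283, and -0.27, adjusted p = 0.0364) and Smad2 fell in Cdk6-K43M (-0.19, adjusted p = 0.048; -0.01 without the arrays with exchanged dyes, and 0.00 with median centring). The Skil call was lost in Cdk6-/- under 6 of 18 alternatives, among them leaving out Cdk6-/- replicate 1, 2 or 4, and in Cdk6-K43M under 3, among them leaving out Cdk6-K43M replicate 1 and median centring (-0.07, adjusted p = 0.528), under which 2 TGF-beta pathway genes rose and none fell in Cdk6-K43M. Of 11 quiescence genes, 4 fell in Cdk6-K43M and 2 in Cdk6-/-, and none rose; with median centring 2 fell and 1 rose in Cdk6-K43M. Btg1, an anti-proliferative gene, fell by 1.02 in Cdk6-K43M (adjusted p = 0.00374) and read -0.43 in Cdk6-/- (adjusted p = 0.165), while its relative Btg2 fell by 0.57 (adjusted p = 0.0119) and 0.70 (adjusted p = 0.0141). Cdkn1a, the CDK inhibitor p21, read -0.19 in Cdk6-K43M (adjusted p = 0.372) and fell by 0.80 in Cdk6-/- (adjusted p = 0.0119), and Foxp1 fell by 0.40 in Cdk6-K43M (adjusted p = 0.0142; -0.19 with median centring, adjusted p = 0.208).

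The changes of the members that passed differed in how far they held under other processing. Those of Klf2 and Klf6 passed under every alternative tried, that of Klf13 under 16 of 18, that of Klf7 under 8 and that of Klf9 under 4. Not every alternative could move them: Klf2, Klf6, Klf9 and Klf13 each had 1 probe. The alternatives on how probes are kept or joined thus left their fitted values unchanged.

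**Figure D5:**
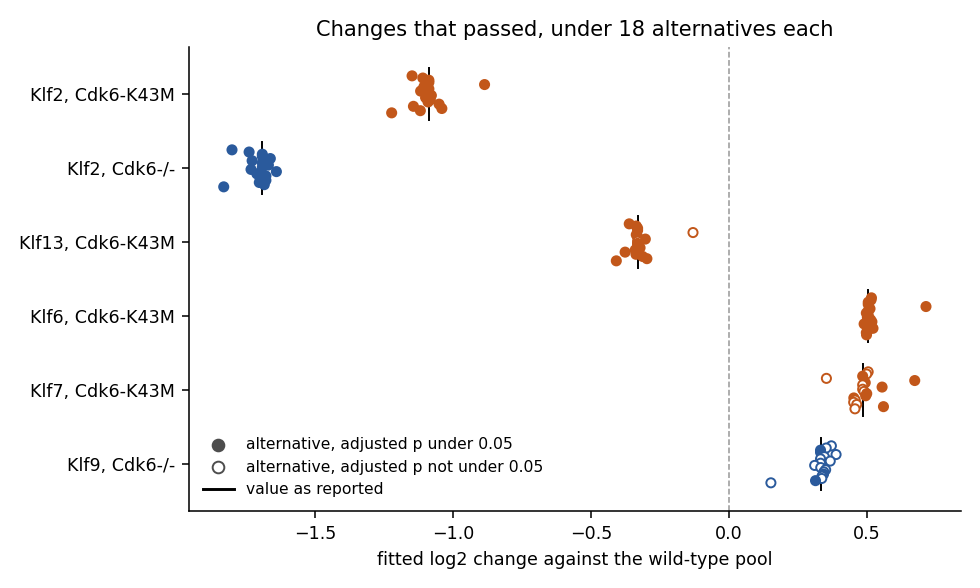
Fitted log2 change against the wild-type pool (x axis) of the 6 changes that passed, each under 18 alternatives (points) and as reported (black line). Filled points passed an adjusted p of 0.05. All points of Klf2 and Klf6 are filled, and most of those of Klf9 are open.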

How the data were processed

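Spot and local background intensity values were read from 10 2-colour arrays with Agilent Feature Extraction 11.5.1.1, which also gave processed signal intensities, per the file headers. The authors also deposited log2 values in a table named as loess normalized. From the spot intensities, limma 3.58.1 in R 4.3.3 corrected background by normexp (offset 50) and normalized each array by loess without control spots; spots that were not uniform were set to missing and those of a probe averaged. Probes were kept when well above background in 3 or more of the 4 single arrays of a genotype, or in 5 of 10 wild-type channels, and the brightest stood for a gene (named through RefSeq's GRCm38.p6 annotation; the headers give mm9, so no probe coordinates are given). Fits against wild type used all 10 arrays with a dye term, and treated the pool as 1 control sample with no spread, while the pooled arrays hold the same RNA again. Where 1 sample was left out of these fits, the pooled array of its genotype stayed in, so its RNA was not fully removed. Genotypes were compared on 8 arrays. Benjamini-Hochberg adjustment ran over all 22008 genes (threshold 0.05). The fits were tested on simulated data with independent noise on each array. The simulation held no deviation of the wild-type pool and no RNA shared between arrays, so it cannot speak to either. Levels per channel were scaled by Aquantile. Members and lists were chosen with earlier results of these data known. Every member was named, from each list up to 4 genes with the smallest p among those past the threshold, and the genes most like Klf2 among those with at least 0.5 of its SD. Of the genes in the lists, 3 are not reported here and were left out of the counts.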

Additional observations from a re-analysis of the deposited data

Results flagged for a closer look

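Klf7 in Cdk6-K43M replicate 4 read 0.090, far from the 0.58, 0.61 and 0.55 of the other 3 samples, a gap that took up 0.899 of the range of the 4 samples and exceeded Dixon's limit. Of 18 such groups tested (8 members and Cdk6 in 2 genotypes), it was the 1 that did so, and chance alone exceeds the limit in about 1 of 20. Hdac1 was lower in Cdk6-K43M than in Cdk6-/- (difference -0.63, limma, adjusted p = 0.0165), and lower in every Cdk6-K43M sample than in every Cdk6-/- sample; across its alternatives the difference lay between -0.98 and -0.46, with adjusted p from 0.00165 to 0.0825. Leaving out Cdk6-/- replicate 1, 2 or 4, or Cdk6-K43M replicate 1 or 3, took the adjusted p above the threshold.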

How the results depend on the processing

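The count of members that passed in Cdk6-/- (2) was 1, Klf2 alone, with no background correction, Agilent's processed signals, median centring in place of loess, the deposited log2 table, no filter on dim probes, slide as a block, standard errors widened for the pool, and without the arrays with exchanged dyes and the dye term; leaving out 1 sample gave 1 to 2. In Cdk6-K43M (4), widened standard errors left 2 (Klf2 and Klf6) and leaving out 1 sample gave 3 to 4. Between the genotypes (0), all 10 arrays with a dye term and median centring each gave 2 (Klf2 and Klf6), and leaving out 1 sample gave 0 throughout. With the replicate number as a block it was also 0. Nothing in the labels pairs the numbers, so the main fit had no such block. Same-numbered samples deviated together with r of 0.08, -0.07, 0.23 and 0.14. For replicates 1, 3 and 4 of Cdk6-K43M, the Cdk6-/- sample with the highest r was the same-numbered one, so pairing remains unsettled. Under the block the Hdac1 difference lost its call (adjusted p = 0.0604). Over all genes the block left 37 calls against 113, slide as a block 33, and widened standard errors 130 against 1593 in Cdk6-/- and 1270 against 4427 in Cdk6-K43M.

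Of 432 values of the 8 members under alternatives, 386 kept their direction and side of the threshold, 26 lost the call, 4 gained one and 16 turned sign, all 16 of changes that had not passed. In Cdk6-K43M against wild type, Klf4 turned to -0.030 with processed signals, -0.00069 with the deposited table and -0.12 without the arrays with exchanged dyes, and leaving out 1 sample gave -0.17 to 0.18. Klf10 turned to 0.12 with median centring, with -0.11 to 0.010 when 1 sample was left out, and Klf9 turned to 0.069 with median centring. In Cdk6-/-, leaving out 1 sample gave -0.22 to 0.082 for Klf4 and -0.092 to 0.021 for Klf16, which is no member. Between the genotypes it gave -0.24 to 0.33 for Klf4 and -0.044 to 0.15 for Klf10. Median centring moved the median of all genes in Cdk6-K43M to 0.11, against -0.01 with loess; under it Ctbp1 read 0.072 and Smad2 0.0026, which is -0.04 and -0.11 from that median. Of 30 calls of listed genes, 17 passed under median centring and 22 with slide as a block. The wild-type pool has no spread of its own here, and Klf11 and Klf12 were too dim to measure. The causes of these shifts were not tested.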
